A study of Mus musculus with 45 samples.

Results

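The response described here is that of p53-deficient mouse embryonic fibroblasts (MEFs) to 1 h of interleukin-1 beta (IL-1b), read across all genes. It rests on 4 of the 45 libraries of the series, picked by the genotype, stimulus and time in their titles: 2 from p53KO cells given IL-1b at 10 ng/ml for 1 h and 2 from the p53KO cells of the same time course at 0 h. Each group holds a library of KO-1 and a library of KO-2, and the comparison was paired by these lines. Both groups are p53-/-, of strain C57BL/6, primary fibroblasts from embryos that were held overnight in medium with little calf serum before the cytokine was added, and poly(A) RNA was sequenced from them. The study followed p53KO and WT fibroblasts through IL-1b, TNF and LPS to see whether cells without p53, which can be passaged for longer, induce inflammatory genes as WT cells do. Further groups are used below only as comparators: p53KO cells after 1 h of TNF at 10 ng/ml and their own 0 h (2 libraries each), p53KO cells after 3 h of IL-1b (2 libraries), and WT cells after 1 h of IL-1b and at 0 h (1 library each). The submitters call KO-1 and KO-2 biological replicates, but whether these derive from separate embryos, and which Trp53 allele they carry, is not in the labels. No untreated 1 h library is among the 45, so an effect of adding medium cannot be told apart from that of IL-1b.

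IL-1b is a cytokine that binds the receptor Il1r1 with its partner Il1rap and signals through Myd88, the IRAK kinases and Traf6. The kinases downstream release NF-kB dimers from their inhibitors, the IkB proteins, and activate the MAP kinases ERK, JNK and p38. NF-kB and factors already present in the cell then start primary response genes within the hour. These include genes that switch the pathway off again, immediate early transcription factors, and chemokines by which fibroblasts call in leukocytes.

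Counts assigned to genes totalled 12735579 (KO-1) and 10584599 (KO-2) at 1 h of IL-1b, against 11348859 and 10660439 at 0 h, and lay between 5619870 and 15355994 over the 45 libraries. Trp53 (chromosome 11, 69393861 to 69405375, mm9), the gene named by the genotype, had 62.0 and 55.6 CPM (gene counts scaled to library size) at 1 h and 68.8 and 63.6 CPM at 0 h in p53KO cells, against 187 CPM at 1 h and 191 CPM at 0 h in WT cells. The fibroblast label was borne out by its markers: the 14 listed summed to 34300 and 37500 CPM at 1 h and to 37600 and 35400 CPM at 0 h, and none passed the test between the times. The 15 macrophage markers summed to 588 and 558 CPM at 1 h, against 509 and 449 CPM at 0 h, and of these Cd14 (log2 change 0.71) and Lyz2 (0.34) passed, the second in no fit that lacked one of the 4 libraries (adjusted p 0.0965 to 0.295 in edgeR's test). The part of macrophages in the results was not tested, and in RNA from a whole culture a change in the number of cells of a type cannot be told apart from a change in RNA per cell. Summed levels over the 4 libraries were 24.1 to 29.2 CPM for 7 endothelial, 50.6 to 63.0 CPM for 8 epithelial, 112 to 132 CPM for 7 muscle and 251 to 284 CPM for 8 neural markers, with none called, and the 4 globin genes were at 0.

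After 1 h of IL-1b, 499 of 13851 tested genes were higher than at 0 h (3.6%) and 555 were lower (4.01%), at an adjusted p under 0.05 in edgeR's quasi-likelihood test with KO-1 and KO-2 as a block. The rises were steeper than the falls. Of the genes that rose, 157 rose at least 2-fold, 61 at least 4-fold and 18 at least 16-fold, with a median log2 change of 0.62. Of those that fell, 90 fell at least 2-fold, 3 at least 4-fold and 0 at least 16-fold, with a median of -0.58. The median over all tested genes was 0.01. In each called gene KO-1 and KO-2 moved the same way, but a gene whose lines disagreed could hardly be called, so this is no separate sign of agreement. Across all tested genes, which are not independent of each other, the changes of the lines had a Pearson r of 0.603. DESeq2 called 346 higher and 262 lower. With 1 library left out and the rest kept, 322 were higher and 287 lower without KO-1 at 0 h, 348 and 356 without KO-2 at 0 h, 315 and 276 without KO-1 at 1 h, and 323 and 282 without KO-2 at 1 h.

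**Figure D1:**
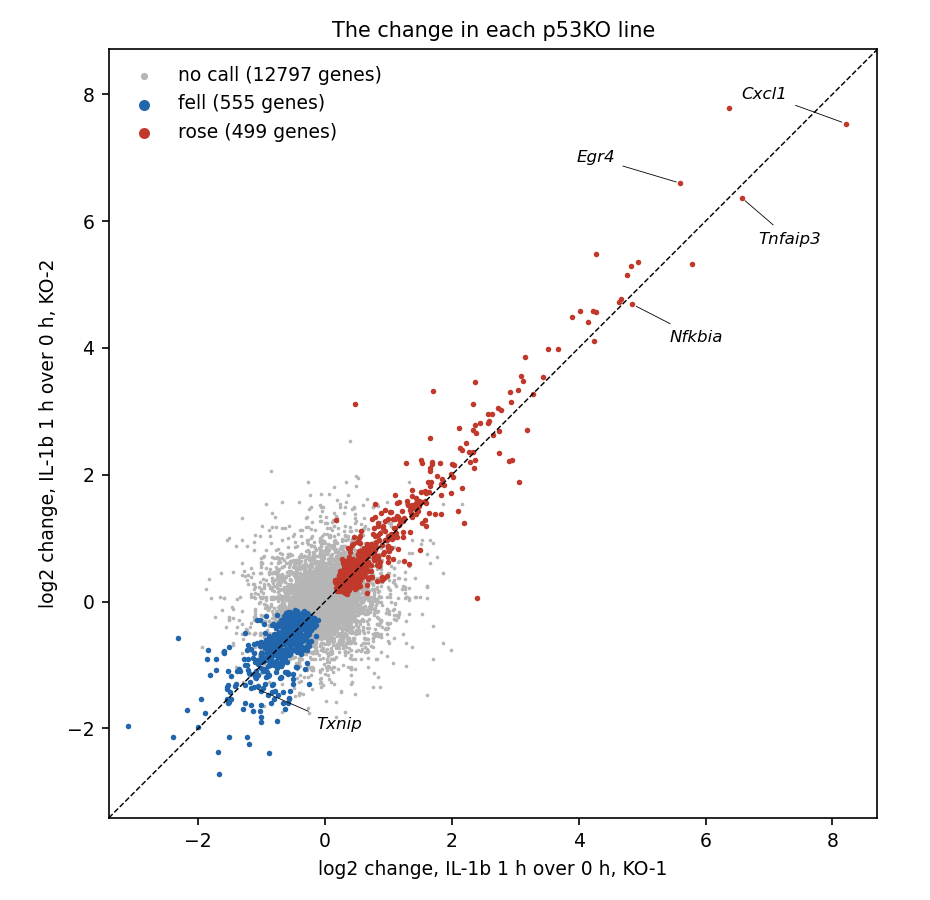
Each point is a tested gene, with the log2 change at 1 h of IL-1b over 0 h in KO-1 on the horizontal and in KO-2 on the vertical axis; red points rose, blue points fell and grey points were not called, and the dashed line marks equal change. The 499 risen genes run along the line, among them Cxcl1 at 8.21 in KO-1 and 7.54 in KO-2, and the 555 fallen genes gather below 0 in both lines.

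The 4 largest rises were those of Cxcl1, Cxcl2, Tnfaip3 and Egr4. Cxcl1 (ENSMUSG00000029380, chromosome 5, 91320267 to 91322141, mm9), a chemokine that attracts neutrophils, had 233 and 381 CPM at 1 h, against 0.582 and 1.84 CPM at 0 h. Cxcl2 (ENSMUSG00000058427, chromosome 5, 91332897 to 91334935), its neighbour with the same role, had 71.5 and 103 CPM at 1 h, against 0.665 and 0.263 CPM at 0 h. Tnfaip3 (ENSMUSG00000019850, chromosome 10, 18720716 to 18735463), which encodes the ubiquitin-editing inhibitor A20, had 629 and 697 CPM at 1 h, against 6.40 and 8.25 CPM at 0 h. None of the 3 had overlapping groups. With 2 libraries a group, lack of overlap is weak evidence alone, and its share over all tested genes was not counted. The log2 changes were 7.77 ± 0.19, 7.0 ± 0.27 and 6.46 ± 0.13 (SE) with adjusted p-values of 8.05e-23, 2.61e-18 and 8.15e-25 in edgeR's test. Each SE, here and below, was worked back from the test statistic. It can understate the counting error of genes with few counts at 0 h, such as Cxcl2 with 8 and 3 counts. Egr4, an early growth response factor, had no count in either 0 h library and 126 and 212 counts at 1 h, which makes it at least 111.9-fold higher against a floor of 3 counts over the 0 h libraries together. Nfkbia (ENSMUSG00000021025, chromosome 12, 56590398 to 56593634), which encodes IkBa, had the smallest p-value of all genes and is described with its family below.

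**Figure D2:**
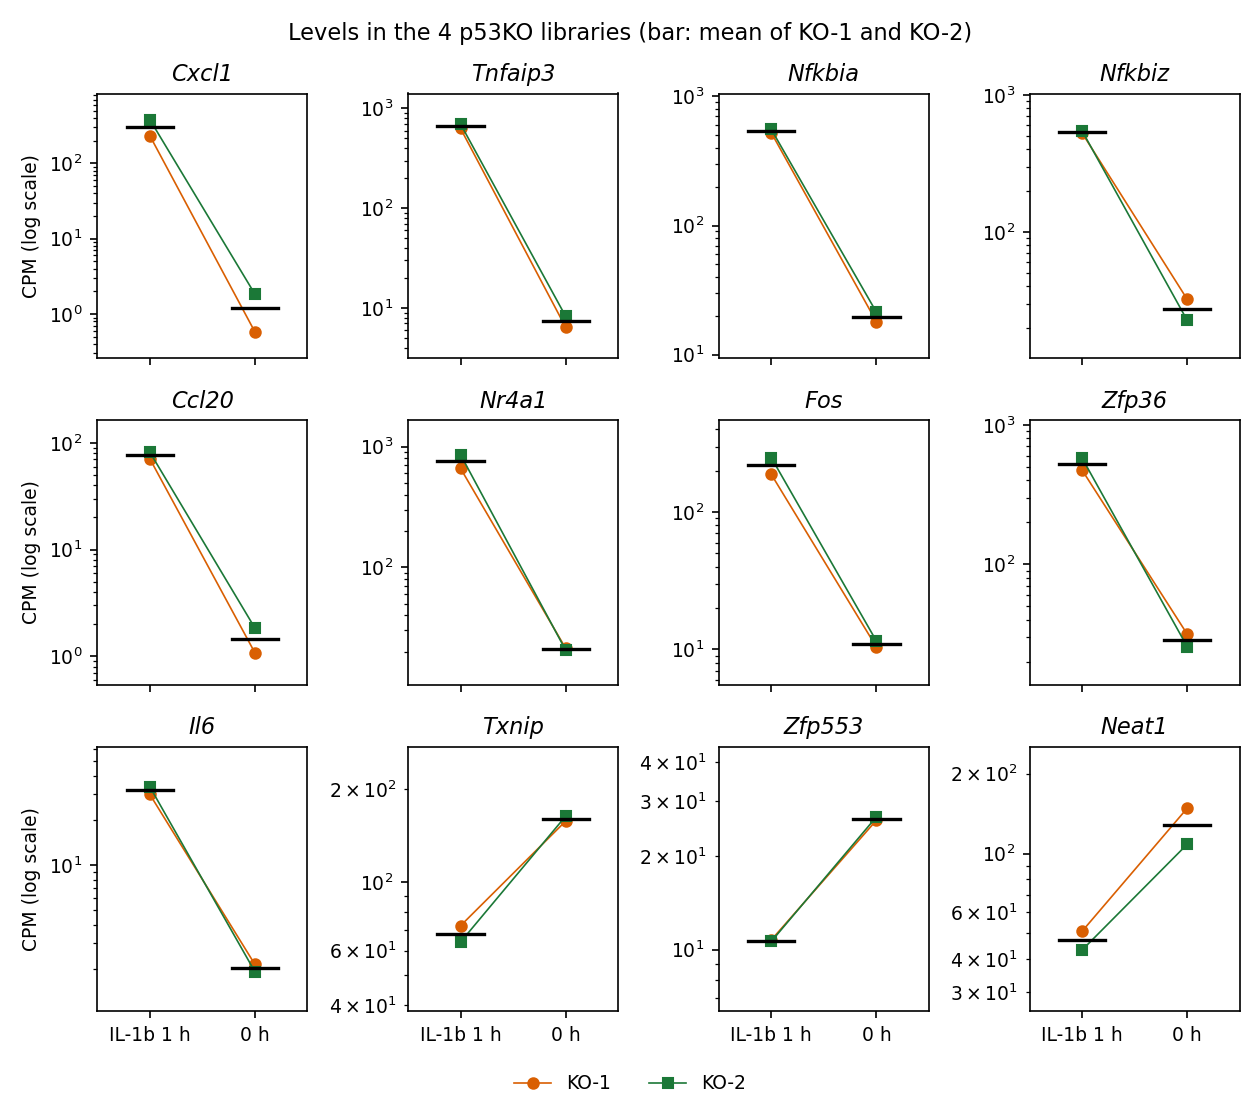
Level in CPM on a log axis for 12 genes in the 4 libraries, with IL-1b at 1 h left of 0 h; orange circles are KO-1, green squares KO-2, thin lines join the libraries of a line, and black bars are means. For the 9 risen genes every 1 h value lies above every 0 h value, and for Txnip, Zfp553 and Neat1 every 1 h value lies below.

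Promoter windows were searched for the motifs of factors that IL-1b is known to engage, and the shares are given as a description without a test. RefSeq promoter windows (GRCm38.p6, 250 bases before to 50 after the start) were available for 300 of the 499 risen genes, 362 of the fallen and 8196 of all tested genes that have a single listed start. The NF-kB consensus, searched on both strands, was in 12% of the windows of risen genes, in 11 of 37 (29.7%) of those that rose at least 4-fold and in 4.42% of those that fell, against 5.27% of all. The CArG box, the element of the factor Srf, was in 2.67% of risen genes, 2.7% of those that rose at least 4-fold and 0.552% of fallen genes, against 1.35% of all. The cAMP response element TGACGTCA was in 5.67% of risen genes, 10.8% of those that rose at least 4-fold and 4.42% of fallen genes, against 3.29% of all. The AP-1 element TGANTCA was in 9.33% of risen genes, 13.5% of those that rose at least 4-fold and 2.49% of fallen genes, against 4.58% of all. Each window counts when it holds at least 1 match, and a match is a run of letters, not a measured binding site. The windows of 6 strongly risen genes are printed because they show what such matches look like; capitals mark the match. They are, on GRCm38.p6, Nfkbia (chr12:55492598-55492897, minus strand, match starting at -29 from the start), Cxcl1 (chr5:90890995-90891294, plus strand, -71), Cxcl2 (chr5:90903649-90903948, plus strand, -97) and Ccl20 (chr1:83116516-83116815, plus strand, -80) with the NF-kB consensus, Btg2 (chr1:134079106-134079405, minus strand, -166) with the cAMP response element, and Zfp36 (chr7:28379179-28379478, minus strand, -58) with the CArG box.
Nfkbia: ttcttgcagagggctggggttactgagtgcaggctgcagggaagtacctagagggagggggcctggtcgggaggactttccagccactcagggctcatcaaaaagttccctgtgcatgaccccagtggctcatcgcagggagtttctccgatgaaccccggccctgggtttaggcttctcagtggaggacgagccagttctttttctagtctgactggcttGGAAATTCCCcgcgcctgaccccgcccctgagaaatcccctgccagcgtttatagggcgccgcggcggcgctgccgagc
Cxcl1: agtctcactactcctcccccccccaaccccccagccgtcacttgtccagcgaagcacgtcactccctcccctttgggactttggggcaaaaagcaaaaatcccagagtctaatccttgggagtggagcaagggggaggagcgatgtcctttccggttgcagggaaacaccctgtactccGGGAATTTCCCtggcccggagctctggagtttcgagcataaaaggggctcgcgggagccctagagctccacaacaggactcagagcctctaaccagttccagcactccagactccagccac
Cxcl2: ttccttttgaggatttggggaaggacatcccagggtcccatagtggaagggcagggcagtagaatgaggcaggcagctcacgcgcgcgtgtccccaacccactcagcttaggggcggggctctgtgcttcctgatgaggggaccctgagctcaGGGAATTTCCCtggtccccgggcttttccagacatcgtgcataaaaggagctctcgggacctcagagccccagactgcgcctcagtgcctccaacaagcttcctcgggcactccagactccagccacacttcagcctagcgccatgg
Ccl20: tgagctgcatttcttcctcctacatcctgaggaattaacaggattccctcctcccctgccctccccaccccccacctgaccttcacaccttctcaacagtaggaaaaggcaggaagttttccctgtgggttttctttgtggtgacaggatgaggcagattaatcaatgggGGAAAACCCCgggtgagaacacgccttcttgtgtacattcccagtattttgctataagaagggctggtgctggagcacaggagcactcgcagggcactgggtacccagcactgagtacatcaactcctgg
Btg2: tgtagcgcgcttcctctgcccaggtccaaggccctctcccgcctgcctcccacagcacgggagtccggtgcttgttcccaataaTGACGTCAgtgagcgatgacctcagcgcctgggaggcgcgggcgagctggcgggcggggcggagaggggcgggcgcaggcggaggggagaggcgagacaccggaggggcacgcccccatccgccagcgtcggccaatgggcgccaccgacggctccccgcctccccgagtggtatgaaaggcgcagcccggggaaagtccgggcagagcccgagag
Zfp36: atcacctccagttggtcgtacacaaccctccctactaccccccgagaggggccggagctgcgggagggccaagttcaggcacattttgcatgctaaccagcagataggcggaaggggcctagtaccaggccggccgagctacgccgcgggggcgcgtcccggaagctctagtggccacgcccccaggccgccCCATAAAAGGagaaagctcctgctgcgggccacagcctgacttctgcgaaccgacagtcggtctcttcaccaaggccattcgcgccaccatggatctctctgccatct
In Cxcl1 and Cxcl2 the capitals are the same 11 letters and hold a pair of overlapping matches on opposite strands.

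Most genes of the receptor and its proximal relay were not called, while all listed inhibitors of NF-kB rose. Of 23 tested genes for the IL-1 receptor and its proximal signalling, 4 rose and 1 fell (list median log2 change 0.11, against 0.01 over all tested genes), where 3.6% of all tested genes rose and 4.01% fell. Map3k8, the kinase Tpl2 that feeds the ERK pathway, had 16.2 and 19.6 CPM at 1 h, against 2.41 and 2.98 CPM at 0 h, a log2 change of 2.64. Irak2 (0.35), Myd88 (0.33) and Tifa (0.67), adaptors and kinases of the relay, rose by less, and Ikbkg, the NEMO subunit of the IkB kinase, fell by 0.30 on the log2 scale. Il1r1 had 54.6 and 53.4 CPM at 1 h, against 47.6 and 43.0 CPM at 0 h, and did not pass (adjusted p = 0.0734 in edgeR's test). With 1 library left out, 1 to 3 genes of the list rose and 0 fell: the calls of Tifa and Ikbkg were lost without any one of the 4 (adjusted p 0.0517 to 0.294 and 0.0585 to 0.192), and those of Irak2 and Myd88 without KO-1 at 0 h (0.133 and 0.194) or without KO-2 at 1 h (0.189 and 0.178).

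Each of the 6 NF-kB inhibitors and nuclear cofactors rose (median 1.67), where 3.6% of all tested genes rose. Nfkbia, the inhibitor that is resynthesised to end a pulse of NF-kB, had 523 and 555 CPM at 1 h, against 17.96 and 21.33 CPM at 0 h, a log2 change of 4.77 ± 0.08 (SE) with an adjusted p of 4.29e-27 in edgeR's test. Nfkbiz, which encodes the nuclear cofactor IkBz needed for a set of secondary genes such as Il6, had 527 and 546 CPM at 1 h, against 32.3 and 22.7 CPM at 0 h (4.28 ± 0.12). The groups were far apart for both. The remaining 4, Nfkbid (2.22), Nfkbie (1.12), Bcl3 (0.67) and Nfkbib (0.59), rose by less. Of the 5 NF-kB subunits 4 rose (median 0.78): Rel had 19.2 and 19.5 CPM at 1 h, against 4.57 and 4.83 CPM at 0 h (2.00), followed by Relb (1.42), Rela (0.78) and Nfkb2 (0.53). Nfkb1, which encodes p105 and p50, had 77.2 and 83.2 CPM at 1 h, against 74.8 and 71.9 CPM at 0 h, and did not pass (adjusted p = 0.577 in edgeR's test). The call of Nfkb2 was lost without KO-2 at 0 h (adjusted p = 0.108).

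Among 17 ubiquitin regulators 7 rose and 2 fell (median 0.22), where 3.6% of all tested genes rose and 4.01% fell. Beside Tnfaip3 the largest rise was that of Birc3, the ubiquitin ligase cIAP2, with 42.4 and 53.4 CPM at 1 h against 14.8 and 16.0 CPM at 0 h (1.62). Trib1 (1.34), an adaptor for a ubiquitin ligase, rose as well, and Trib3, a stress-induced pseudokinase, fell by 0.55. The list had 4 risen genes without KO-1 at 1 h, and 1 fallen gene without KO-1 at 0 h, KO-1 at 1 h or KO-2 at 1 h. Of 11 regulators of cytokine mRNA decay 4 rose and 0 fell (median 0.25). Zfp36, tristetraprolin, which binds AU-rich elements and speeds mRNA decay, had 473 and 577 CPM at 1 h, against 31.5 and 25.6 CPM at 0 h, a log2 change of 4.18 ± 0.11 (SE; adjusted p = 2.54e-22 in edgeR's test). Zc3h12a, the endoribonuclease Regnase-1, had 30.1 and 34.4 CPM at 1 h, against 4.33 and 5.18 CPM at 0 h (2.71), and Arid5a, which stabilises Il6 mRNA, rose by 1.68.

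Nearly all immediate early genes on the lists rose, where 3.6% of all tested genes rose and 4.01% fell. All gene lists were chosen with earlier results of these data known. Of 27 immediate early transcription factors 24 rose and 0 fell (median 2.36). Nr4a1, an orphan nuclear receptor, had 659 and 856 CPM at 1 h, against 21.4 and 20.6 CPM at 0 h (log2 change 5.14 ± 0.14, SE; adjusted p = 4.72e-22 in edgeR's test). Fos, a subunit of AP-1, had 188 and 249 CPM at 1 h, against 10.4 and 11.5 CPM at 0 h (4.29 ± 0.14). Atf3, a stress-induced repressor of inflammatory genes, had 284 and 316 CPM at 1 h, against 14.8 and 18.2 CPM at 0 h (4.17 ± 0.11). In each the 1 h libraries were several times above the 0 h libraries, and KO-2 was the higher of the 1 h libraries. Fosb (4.96), Egr3 (4.87), Nr4a3 (4.73), Egr2 (3.49), Egr1 (3.19), Junb (2.88), Csrnp1 (2.75) and Jun (2.71) rose by more than 4-fold too. Jund (0.45) and Srf (0.69) rose by less, and Nab2, a corepressor of the Egr factors, and Klf9 were among the 3 that did not pass.

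Of 20 other immediate early genes 19 rose (median 1.47), and Ier5l fell, where 3.6% of all tested genes rose and 4.01% fell. Btg2, an antiproliferative cofactor also known as a p53 target, had 621 and 730.4 CPM at 1 h, against 32.9 and 30.4 CPM at 0 h (4.40 ± 0.11, SE; adjusted p = 1.6e-22 in edgeR's test). Ier3, an early survival gene, had 466 and 474 CPM at 1 h, against 48.0 and 48.8 CPM at 0 h (3.27 ± 0.08). Ccn1, a secreted matricellular protein, had 2617 and 2833 CPM at 1 h, against 601 and 526 CPM at 0 h (2.28). The lines agreed closely for Ier3, and its groups did not overlap. Arc (4.42), Errfi1 (2.70), an inhibitor of the EGF receptor, Edn1 (2.57), which encodes endothelin-1, and Gadd45b (2.09) also rose. Ier5l had 10.6 and 11.6 CPM at 1 h, against 21.2 and 22.2 CPM at 0 h (-0.96).

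Among 16 MAP kinase phosphatases and inhibitors of Ras and ERK, 8 rose and 1 fell (median 0.46). Over all tested genes 3.6% rose and 4.01% fell. Dusp1, which dephosphorylates p38 and JNK, had 172 and 219 CPM at 1 h, against 22.7 and 21.9 CPM at 0 h (3.11 ± 0.14, SE; adjusted p = 5.85e-17 in edgeR's test). Dusp8 (2.08), Dusp5 (1.53) and Spry4 (1.49) rose, and Dusp7 fell by 0.81. Dusp6, the cytoplasmic ERK phosphatase, had a log2 change of 0.33 and did not pass (adjusted p = 0.0714 in edgeR's test).

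**Figure D3:**
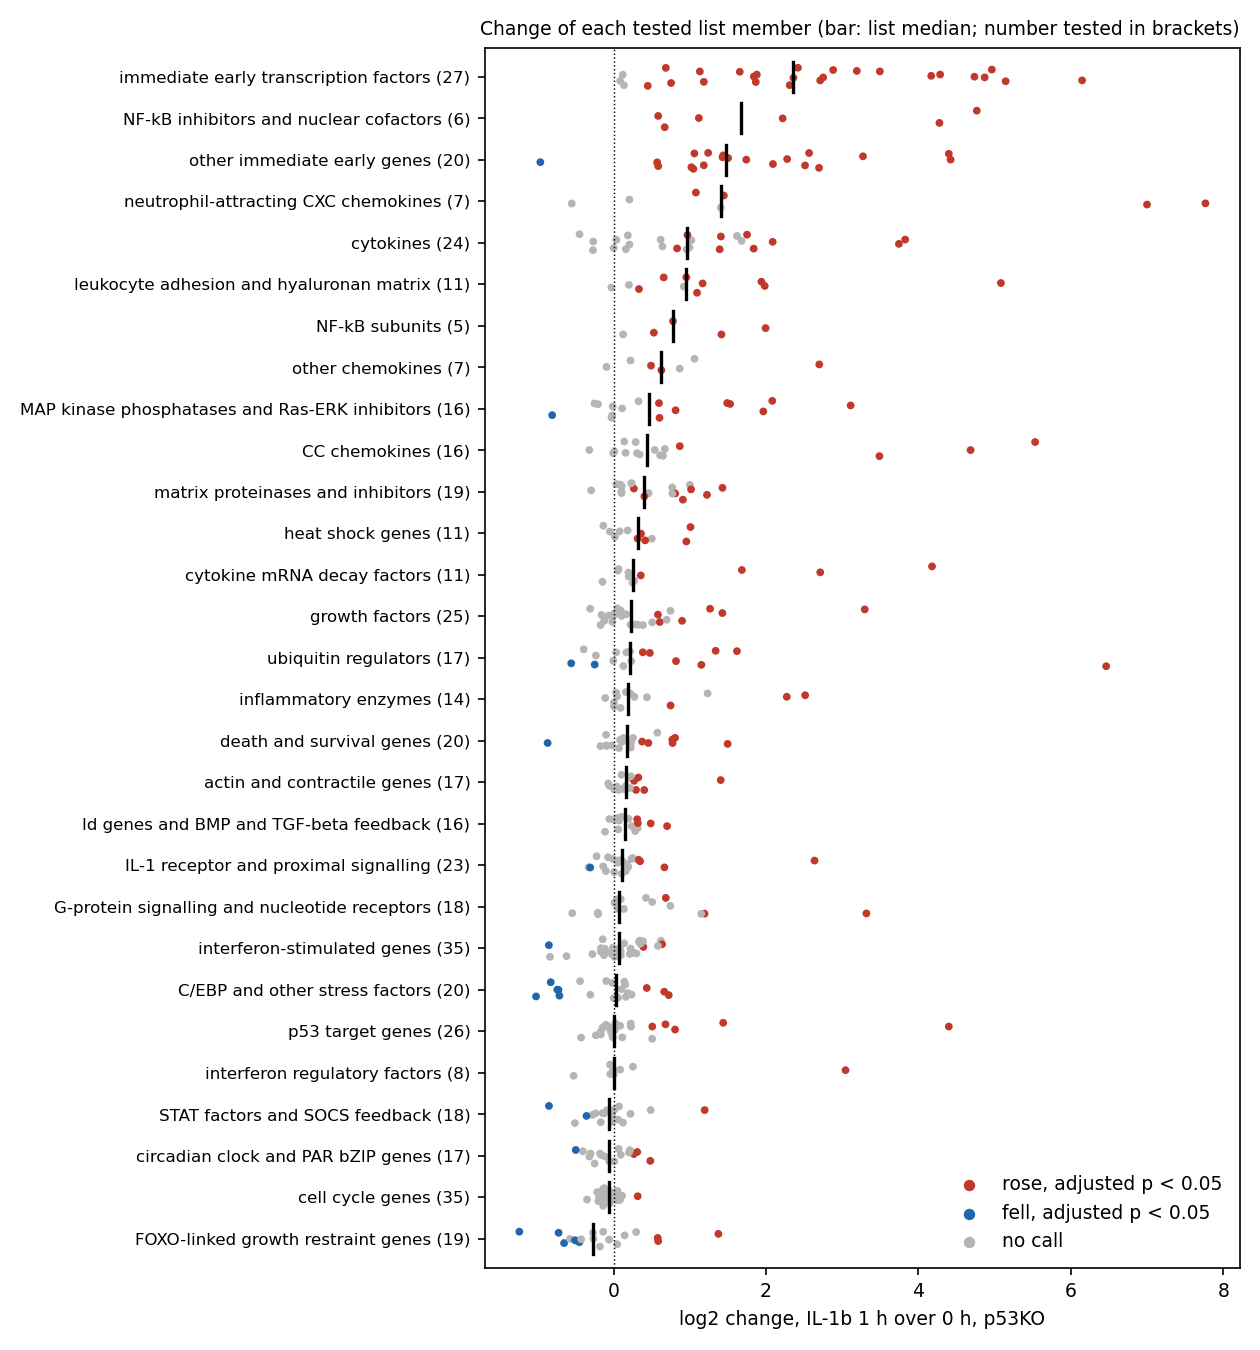
Log2 change of every tested member of 29 gene lists, IL-1b at 1 h over 0 h, ordered by list median (black bars); red members rose, blue fell and grey were not called, and the dotted line is the median of all tested genes. Immediate early factors (median 2.36) and NF-kB inhibitors (1.67) stand at the top, and FOXO-linked growth restraint genes (-0.26) at the bottom.

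Among secreted signals, a few chemokines and cytokines rose far, while most of the CC chemokines and cytokines were not called. Over all tested genes 3.6% rose and 4.01% fell. Of 7 neutrophil-attracting CXC chemokines 4 rose (median 1.41): beside Cxcl1 and Cxcl2, Cxcl5 had 20.1 and 27.4 CPM at 1 h, against 7.15 and 10.0 CPM at 0 h (1.45), and Ppbp rose by 1.08 at about 2 CPM or less. Of 16 CC chemokines 4 rose (median 0.44). Ccl2, which attracts monocytes, had 749 and 825 CPM at 1 h, against 29.9 and 30.9 CPM at 0 h (4.68 ± 0.11, SE; adjusted p = 6.22e-23 in edgeR's test). Ccl20, the ligand of the receptor Ccr6, had 71.2 and 82.0 CPM at 1 h, against 1.08 and 1.84 CPM at 0 h (5.53 ± 0.16). Ccl7 (3.49) and Ccl3 (0.87) completed the list of risen CC genes, and Ccl5, which had a log2 change of 0.65, did not pass. Of 7 other chemokines 3 rose: Cxcl10, a T cell attractant, had 66.2 and 77.8 CPM at 1 h, against 13.0 and 8.78 CPM at 0 h (2.70), with Cxcl16 (0.63) and Cx3cl1 (0.49). The calls of Ppbp and Ccl3 were lost without any one of the 4 libraries (adjusted p 0.1 to 0.251 and 0.0908 to 0.107 in edgeR's test), those of Cxcl16 and Cx3cl1 without KO-2 at 0 h (0.21 and 0.0915) or KO-1 at 1 h (0.351 and 0.218), and that of Cx3cl1 also without KO-1 at 0 h (0.0967).

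Of 24 tested cytokines 9 rose and 0 fell (median 0.96), where 3.6% of all tested genes rose and 4.01% fell. Il6 had 29.98 and 33.76 CPM at 1 h, against 2.16 and 1.93 CPM at 0 h (3.83 ± 0.18, SE; adjusted p = 1.51e-16 in edgeR's test). Lif, a cytokine of the same family, had 239 and 287 CPM at 1 h, against 20.6 and 17.9 CPM at 0 h (3.74 ± 0.15). Csf1, the macrophage growth factor, had 444 and 387 CPM at 1 h, against 226 and 198 CPM at 0 h (0.97). The groups overlapped in none of the 3. Tnf itself stayed low, with 4.67 and 4.66 CPM at 1 h against 1.16 and 1.32 CPM at 0 h (1.75), and Csf2 and Csf3, colony-stimulating factors, rose on few reads, with 9 and 11 counts (Csf2) and 9 and 7 counts (Csf3) at 1 h against 1 and 0 counts each at 0 h. The call of Csf2 was lost without any one of the 4 libraries (adjusted p 0.0551 to 0.178 in edgeR's test), and that of Csf3 without KO-2 at 0 h (0.19) or KO-1 at 1 h (0.12). Il1a, with 7 and 7 counts at 1 h against 0 and 1 at 0 h, and Il1b, with 1 and 4 counts at 1 h against none at 0 h, did not pass. Of 25 growth factors 6 rose and 0 fell (median 0.22), led by the EGF family ligand Ereg, with 53.1 and 61.6 CPM at 1 h against 5.91 and 5.36 CPM at 0 h (3.30), and also including Hbegf (1.27), of the same family.

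Interferon-stimulated genes were called about as often as genes at large. Of 8 interferon regulatory factors Irf1 alone rose, with 163 and 206 CPM at 1 h against 21.2 and 23.0 CPM at 0 h (3.04 ± 0.10, SE; adjusted p = 1.3e-20 in edgeR's test). Of 35 interferon-stimulated genes 2 rose and 1 fell (median 0.07): Rsad2 (0.64) and Ifit1 (0.39) rose, close to the threshold, and Stat2 fell by 0.85, where 3.6% of all tested genes rose and 4.01% fell. The calls of Rsad2 and Ifit1 were lost without any one of the 4 libraries (adjusted p 0.0575 to 0.436 and 0.0732 to 0.356 in edgeR's test), which left 0 of the list higher. Of 18 STAT and SOCS genes Cish (1.20) rose, and Socs3, the feedback inhibitor of IL-6 signalling, had 13.5 and 11 CPM at 1 h, against 20.9 and 24.0 CPM at 0 h (-0.85). Socs5 fell by 0.35.

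Genes of leukocyte adhesion and the hyaluronan matrix rose in 8 of 11 cases (median 0.96), where 3.6% of all tested genes rose. Sele, E-selectin, known best from endothelium, had 38.8 and 69.8 CPM at 1 h, against 1.16 and 1.58 CPM at 0 h. Its log2 change was 5.08 ± 0.19 (SE), with an adjusted p of 1.34e-18 in edgeR's test. The endothelial markers described above summed to 26.4 and 29.2 CPM at 1 h and to 24.8 and 24.1 CPM at 0 h. Which cells of the culture made Sele was not tested. Icam1 (1.94), Sdc4 (1.17), Tnfaip6 (1.10) and Vcam1, with 345 and 339 CPM at 1 h against 179 and 173 CPM at 0 h (0.96), rose too. Of 14 inflammatory enzymes 3 rose (median 0.19). Ptgs2, the prostaglandin synthase COX-2, had 676 and 666 CPM at 1 h, against 150.5 and 127 CPM at 0 h (2.27), and Ch25h, which makes an oxysterol, had 80.8 and 87.8 CPM at 1 h, against 15.4 and 13.7 CPM at 0 h (2.51). Of 19 matrix proteinases and inhibitors 7 rose (median 0.41), among them urokinase, Plau (1.43), and its receptor, Plaur (1.02), with 4 risen without KO-1 at 0 h. Of 18 genes for G-protein signalling and related receptors 3 rose (median 0.08), among them Rgs16, with 237 and 292 CPM at 1 h against 27.7 and 24.7 CPM at 0 h (3.32), and F3, tissue factor (1.19).

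In the lists on growth and stress a minority of genes was called, where 3.6% of all tested genes rose and 4.01% fell. Of 26 p53 target genes 5 rose and 0 fell in these p53-deficient cells (median 0.00): Btg2, Plk2 (1.44), Pmaip1 (0.81), Cdkn1a (0.68) and Mdm2 (0.51), of which Btg2 and Plk2 are also on the immediate early list. Cdkn1a, the p21 inhibitor of cyclin-dependent kinases, had 34.9 and 41.6 CPM at 1 h, against 22.9 and 24.4 CPM at 0 h. Of 20 death and survival genes 6 rose and 1 fell (median 0.18), with the survival genes Pim1 (1.5) and Mcl1 (0.77) up and Bmf, a death gene of the BCL-2 family, lower by a log2 change of -0.86. Of 35 cell cycle genes 1 rose, Pcna (0.32), and none fell. Bmf was not called without KO-1 at 0 h, KO-1 at 1 h or KO-2 at 1 h (adjusted p = 0.125, 0.0577 and 0.0534 in edgeR's test), nor Pcna without KO-1 at 0 h or KO-2 at 1 h (0.112 and 0.0891). Of 17 actin and contractile genes 5 rose (median 0.16), led by Ankrd1 (1.41), but 1 to 2 did so with any one of the 4 libraries left out. Of 11 heat shock genes 5 rose (median 0.32), led by Dnajb1 (1.01), and 3 without KO-1 at 1 h. Of 16 Id genes and feedback genes of BMP and TGF-beta signalling 4 rose (median 0.15), led by Skil (0.70), and 1 rose without KO-1 at 0 h, 1 without KO-1 at 1 h and 2 without KO-2 at 1 h. Of 17 clock genes 3 rose and 1 fell (median -0.06), but 0 to 1 rose and 0 to 1 fell with any one of the 4 libraries left out.

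Genes linked to FOXO factors and growth restraint were, of the 29 lists, the one with the lowest median (-0.26). Of these 19 genes 6 fell and 3 rose, where 4.01% of all tested genes fell and 3.6% rose. Txnip, which holds back glucose uptake and binds thioredoxin, had 72.3 and 64.0 CPM at 1 h, against 158 and 164 CPM at 0 h. This was the fall with the smallest p-value of all genes (-1.24 ± 0.08, SE; adjusted p = 1.3e-12 in edgeR's test), and the groups did not overlap. Arrdc3 (-0.72), Trib2 (-0.50), Cdkn1b, the p27 inhibitor (-0.47), and Foxo1 itself (-0.45) fell, while Cited2 (1.38), Gadd45a (0.59) and Bcl6 (0.58) rose. Foxo1 was not called without KO-1 at 0 h, KO-2 at 0 h or KO-2 at 1 h (adjusted p = 0.109, 0.0965 and 0.298 in edgeR's test). In the list of C/EBP and other stress factors 5 of 20 fell and 3 rose (median 0.03). Ddit4, an inhibitor of mTORC1, had 30.7 and 27.4 CPM at 1 h, against 57.0 and 61.6 CPM at 0 h (-1.02 ± 0.12), and Snai2, a repressor of epithelial genes, had 32.5 and 34.3 CPM at 1 h, against 61.1 and 57.4 CPM at 0 h (-0.82 ± 0.08). Cebpb rose by 0.67.

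A large share of the genes that fell belongs to the Zfp series, most of which encode zinc finger proteins that bind DNA. Of 312 tested genes named Zfp and a number, 108 fell (34.6%), 5 rose and 199 were not called, against 4.01% of all tested genes that fell. They made up 19.5% of the fallen genes and 2.25% of the genes tested, and their median log2 change was -0.36. This family was chosen after the values had been seen, and its name is shared by a few unlike genes, such as Zfp36 above. Among genes with a mean of 2 to 20 CPM over all libraries, 78 of 184 Zfp genes fell (42.4%), against 212 of 4117 other genes (5.15%). With TNF 88 of the 312 Zfp genes fell, where 3.52% of all tested genes fell, and their median was -0.35, against 0.005 over all tested genes. In WT cells given IL-1b, with 1 library at each time, the Zfp median was -0.42, against 0.01 over all tested genes. Zfp553 had 10.8 and 10.6 CPM at 1 h, against 26.0 and 26.7 CPM at 0 h (-1.29 ± 0.11, SE; adjusted p = 2.89e-10 in edgeR's test). Zfp39 had 1.64 and 1.68 CPM at 1 h, against 7.15 and 7.20 CPM at 0 h (-1.99 ± 0.18), and Zfp60 had 5.14 and 4.66 CPM at 1 h, against 12.9 and 15.5 CPM at 0 h (-1.49 ± 0.14). Their groups did not overlap, and Zfp genes made up 12 of the 20 largest falls among genes at 2 CPM or more. DESeq2 called 60 Zfp genes lower, and 60, 79, 65 and 64 were called without KO-1 at 0 h, KO-2 at 0 h, KO-1 at 1 h and KO-2 at 1 h. Reads that match several places are outside the gene counts, so Zfp members with close copies are uncertain one by one.

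**Figure D4:**
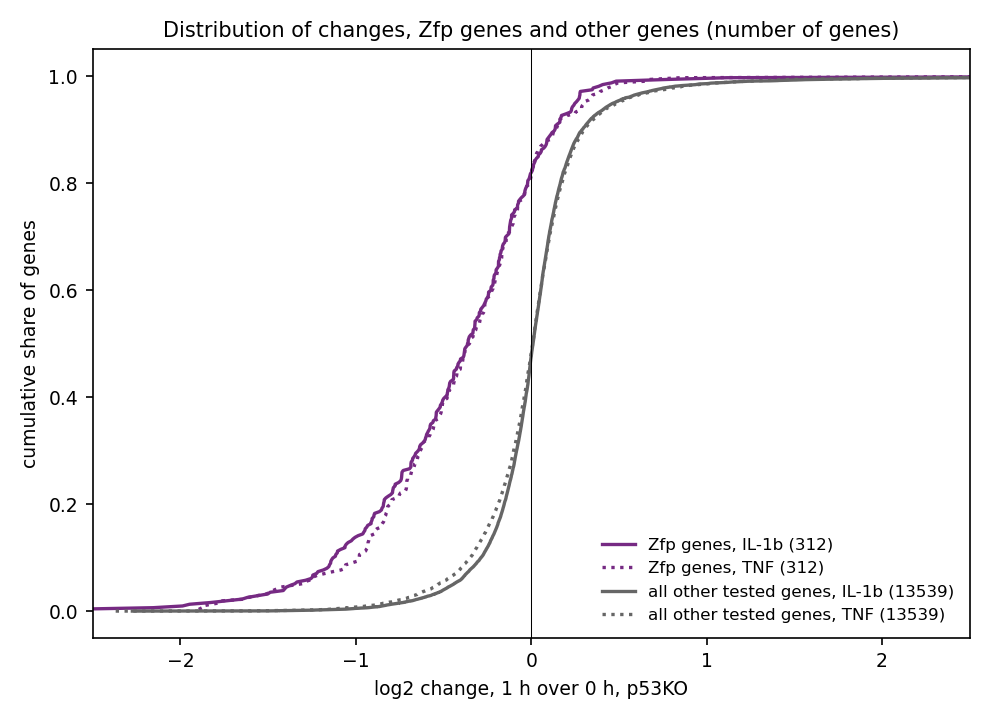
Cumulative share of genes by log2 change at 1 h over 0 h in p53KO cells, for the 312 Zfp genes (purple) and the 13539 other tested genes (grey); solid lines are IL-1b and dotted lines TNF. The Zfp curves lie left of the others over most of the range, with medians of -0.36 (IL-1b) and -0.35 (TNF).

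Outside these lists the fallen genes with the smallest p-values included several regulators of transcription. Mn1, a transcriptional cofactor, had 17.8 and 17.2 CPM at 1 h, against 40.6 and 41.7 CPM at 0 h (-1.22 ± 0.10, SE; adjusted p = 3.38e-10 in edgeR's test). Sall2, a zinc finger factor of the spalt family, had 20.9 and 19.5 CPM at 1 h, against 42.2 and 40.3 CPM at 0 h (-1.02), and Sertad3 had 4.98 and 4.01 CPM at 1 h, against 11.5 and 12.9 CPM at 0 h (-1.38). Fbxo5, an inhibitor of the anaphase-promoting complex, fell by 1.10. Neat1, the non-coding RNA at the core of paraspeckles, had 50.9 and 43.3 CPM at 1 h, against 148 and 108 CPM at 0 h (-1.44 ± 0.23). In WT cells Neat1 had 102.5 CPM at 1 h and 79.55 CPM at 0 h, with 1 library at each time. The difference between the genotypes (log2 difference -1.80) did not pass the test. Mab21l1 (-1.76) and the homeobox gene Homez (-1.45) were among the 20 largest falls. Gene bodies of called genes were short in both directions: the median genomic span was 13323 bp for risen and 12545 bp for fallen genes, against 22467 bp for all tested genes. Transcript length and change were related in KO-1 (Spearman rho -0.342 over 9198 genes) and hardly in KO-2 (0.023), and the part of length alone in the calls was not tested; with the trends on length and GC content removed together, 605 genes were higher and 696 lower.

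The changes with IL-1b were set beside those with TNF, which reaches NF-kB through other receptors and had 0 h libraries of its own. This comparison shows where the stimuli differ. Changes they share cannot be told apart from an effect of adding medium. TNF at 1 h raised 572 genes (4.13%) and lowered 487 (3.52%). Of the 499 genes that rose with IL-1b, 358 were also called higher with TNF (71.7% of the IL-1b genes and 62.6% of the TNF genes) and 492 had the same sign. Of the 555 that fell, 304 were called lower with TNF (54.8% and 62.4%) and 552 had the same sign. The log2 changes of the 2 stimuli had a Pearson r of 0.714 across all tested genes, which are not independent. A test of the difference itself called 1 gene higher (0.00722% of 13851) and 0 lower with edgeR, and DESeq2 also called 1 and 0. At an unadjusted p under 0.05 there were 499 genes with edgeR and 117 with DESeq2, each less than a 0.05 share of the genes tested. For 429 of the risen genes (86%) and 483 of the fallen (87%) the 95% interval of the difference lay within 2-fold. These shares are rough, because the intervals rest on the SE worked back from the test and their widths are uneven. For Cxcl2 the interval ran from -3.42 to 4.50, while for Zfp60 the SE of the difference was 0.16, with 0.14 for each change. The gene called was Nfkbiz, whose 1 h levels were 527 and 546 CPM with IL-1b and 142 and 164 CPM with TNF, against 32.3 and 22.7 CPM and 26.1 and 20.6 CPM at the 0 h of each. Its change exceeded that with TNF by 1.58 ± 0.17 on the log2 scale (SE; adjusted p = 1.21e-05 in edgeR's test). Without KO-1 at 1 h of TNF 2 genes were called higher. Ier3 exceeded its TNF change by 0.59 and Tnf was below its own by 1.65, but neither passed (adjusted p = 0.123 and 1).

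**Figure D5:**
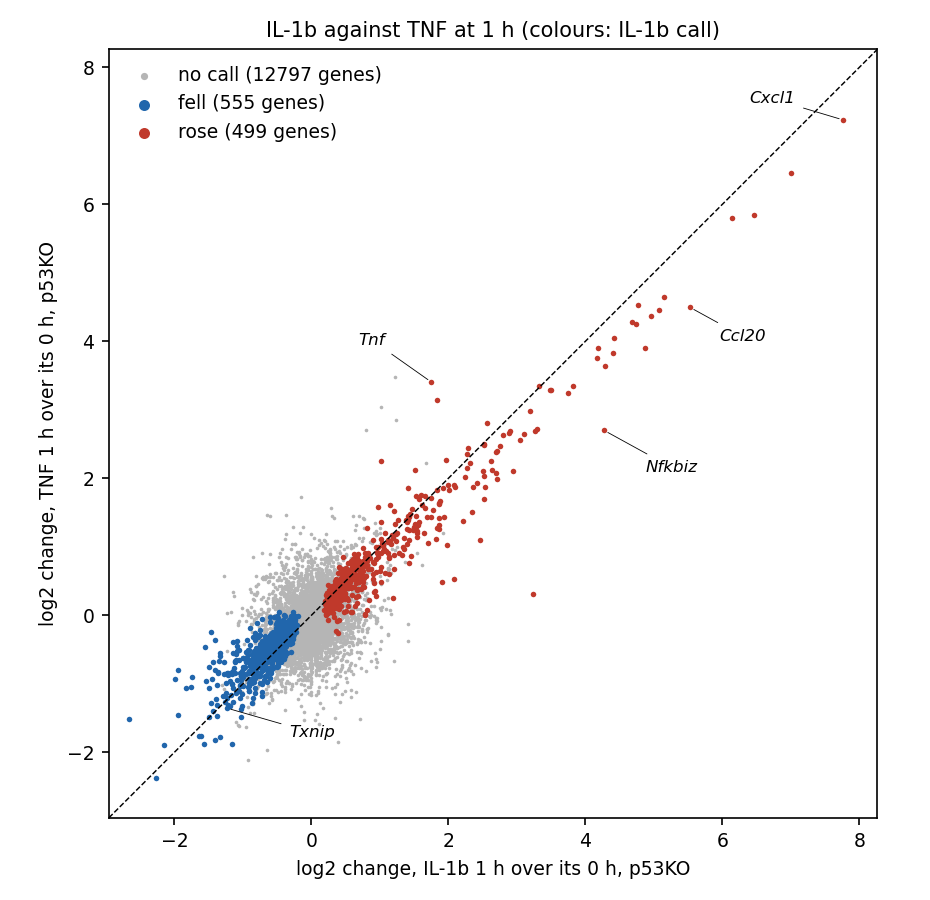
Each point is a tested gene, with its log2 change at 1 h of IL-1b on the horizontal and at 1 h of TNF on the vertical axis, each over its own 0 h; red rose and blue fell with IL-1b, grey was not called, and the dashed line marks equal change. Nfkbiz, the single gene called in the test of the difference, lies below the line (4.28 with IL-1b and 2.70 with TNF).

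By 3 h of IL-1b some of the genes raised at 1 h were lower again and others higher still. The comparison of 3 h with 1 h, which shares the 1 h libraries and so stands beside the values above only as a description, called 2970 genes higher (21.4%) and 3215 lower (23.2%), and 2051 lower without KO-2 at 3 h. Of the 499 risen genes 157 were lower at 3 h than at 1 h, 180 were higher and 162 were not called. Of the 27 immediate early transcription factors 20 were lower and 4 higher at 3 h. Fos averaged 13.7 CPM at 3 h and 219 CPM at 1 h, Nr4a1 51.9 CPM at 3 h and 758 CPM at 1 h, and Tnfaip3 103 CPM at 3 h and 663 CPM at 1 h. Among the 24 cytokines 14 were higher and 0 lower at 3 h, and of the 25 growth factors 15 were higher and 4 lower. Lif averaged 985 CPM at 3 h and 263 CPM at 1 h, and Cxcl5 averaged 239 CPM at 3 h and 23.8 CPM at 1 h. Nfkb1, not called at 1 h, averaged 506 CPM at 3 h and 80.2 CPM at 1 h (log2 difference 2.65). Of the 555 fallen genes 364 were higher again at 3 h and 41 lower still. Of the 312 Zfp genes 135 were higher at 3 h than at 1 h, and their median change from 0 h was -0.02 at 3 h.

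The study set p53KO cells beside WT cells, and most genes called in p53KO cells had the same sign in WT cells. WT cells had 460 genes higher (3.32%) and 356 lower (2.57%), with 1 library per group that was assumed to vary like the p53KO groups. Of the risen genes 487 had the same sign in WT, with a median log2 change of 0.62 in p53KO and 0.69 in WT cells, and of the fallen genes 533, with medians of -0.58 and -0.55. A test of the difference called 8 genes with a higher change in p53KO cells (0.0578%) and 14 with a lower one (0.101%), and without the replicate block it called 5 and 7. The 8 were Egr1, Fos, Btg2, Ccn1, Jun, Dusp1, Ier2 and Myc, which all rose at 1 h in both genotypes. Myc was not called without any one of the 4 p53KO libraries (adjusted p 0.0546 to 0.166 in edgeR's test), nor were Dusp1 and Ier2 without KO-2 at 0 h (0.147 and 0.204) or KO-2 at 1 h (0.117 and 0.123). Fos rose by 4.29 in p53KO cells and by 2.40 in WT cells on the log2 scale, with 188 and 249 CPM in p53KO and 90.0 CPM in WT cells at 1 h, and with 10.4 and 11.5 CPM in p53KO and 16.9 CPM in WT cells at 0 h. Egr1 rose by 3.19 in p53KO and 1.84 in WT cells, with 212 and 196 CPM in p53KO and 378 CPM in WT cells at 0 h. For all 8 both p53KO libraries at 0 h lay below the WT library, a difference that was not tested. Among those with a lower change were Klf10, with 125 and 125 CPM in p53KO and 247 CPM in WT cells at 1 h, and Id1, with 18.8 and 21.2 CPM in p53KO and 82.5 CPM in WT cells at 1 h. With a single WT library at each time, a difference between genotypes cannot be told apart from one between cultures. The counts were 7 and 7 without KO-1 at 0 h, 5 and 9 without KO-2 at 0 h, 7 and 8 without KO-1 at 1 h, and 5 and 7 without KO-2 at 1 h.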

How the data were processed

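Poly(A) RNA of p53KO and WT MEFs was sequenced as paired reads from stranded libraries, per the labels' protocols. The authors deposited 1 table of raw read counts per gene for 45 libraries in mm9 coordinates. STAR, featureCounts, DESeq and mm9 are named in the submitters' processing notes, and the strand setting of the counting is not given in the sources used here. Of 37991 listed genes, 32919 were given symbols by their identifiers, and 5 rows that name no gene hold 24.7% of the counts and were left out.

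The 13851 genes that reached 1 CPM in 2 or more libraries were fitted with edgeR 4.0.16 in R 4.3.3: TMM scaling, a quasi-likelihood fit over all 45 libraries with a mean for each of 30 groups and a line term (KO-2 against KO-1), prior count 2, and Benjamini-Hochberg adjustment at 0.05. CPM are scaled by TMM factors. The common biological coefficient of variation was 0.061, on 14 residual degrees of freedom. The fit was tested on simulated data. DESeq2 1.42.0, other filters, fits without the line term and fits without single libraries were the alternatives.

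The block follows the names KO-1 and KO-2 in the titles. Deviations of KO-1 from KO-2 at 0 h and at 1 h had a correlation of 0.204 over 9264 genes. Over 105 pairs of p53KO groups the correlation ran from -0.152 to 0.523 with a median of 0.202, and 74 pairs were above 0.1. No libraries were identical, and KO-1 and KO-2 differed by more than counting noise within each time (chi-squared ratio 3.92 at 1 h and 3.49 at 0 h). If the lines are cultures of 1 embryo, the p-values measure only the spread between cultures. The floor of 3 counts covers counting error only. Each SE is the absolute log2 change over the root of the F statistic of edgeR's test, which includes the spread between libraries. The 95% intervals of log2 differences use this SE and are approximate, most of all for genes with few counts.

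The comparison, its members and the gene lists were chosen with earlier results of these data known, and the Zfp family after its values were seen. Genes are named if they are on a list, among the 20 largest changes in a direction at 2 CPM or more, among the 10 smallest p-values of the main comparison or 8 of another in a direction, or absent at 0 h with at least 20 counts in each 1 h library. The genes Gbp5, Gbp6, Psmb9 and Bcl2a1d of the lists were not matched.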

Additional observations from a re-analysis of the deposited data

Results flagged for a closer look

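The results below came up because a change differed between stimuli or between genotypes in edgeR's test of the difference itself. Nfkbiz had a change at 1 h that was larger with IL-1b than with TNF by 1.58 on the log2 scale (95% interval 1.22 to 1.93), in KO-1 and in KO-2. The genes whose change at 1 h of IL-1b was larger in p53KO than in WT cells were Fos (log2 difference 1.88), Egr1 (1.35), Btg2 (1.3), Dusp1 (1.14), Ccn1 (1.07), Jun (0.93), Ier2 (0.78) and Myc (0.63). Genes named for a smaller change in p53KO than in WT cells were Id1 (-1.55), Klf10 (-1.33), F3 (-1.21), Bhlhe40 (-1.17), Rnd1 (-1.1), Kctd11 (-0.99), Hes1 (-0.96) and Id3 (-0.79). Id1, an inhibitor of basic helix-loop-helix factors, had a log2 change of 0.11 in p53KO and 1.65 in WT cells, and Rnd1, a small GTPase, had 146 CPM at 1 h and 14.2 CPM at 0 h in WT cells. Each WT value is 1 library. The call of Hes1 was lost without KO-1 at 0 h or KO-2 at 1 h (adjusted p = 0.0546 and 0.0706 in edgeR's test), and that of Rnd1 without KO-1 at 0 h, KO-2 at 0 h or KO-2 at 1 h (0.0546, 0.118 and 0.0656).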

How the results depend on the processing

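The counts of genes higher and lower at 1 h of IL-1b than at 0 h stayed within 1.5 times of 499 and 555 with DESeq2 size factors, other filters, fits on fewer libraries and a line term for each stimulus. They were 941 and 931 when the 6 p53KO libraries at 0 h were pooled, 262 lower by DESeq2's test, and 315 to 348 higher and 276 to 356 lower with 1 library left out. Zfp genes called lower were 60 by DESeq2 and 60 to 79 with 1 library left out. Without the replicate block the counts were 385 and 438; for p53KO against WT they were 5 higher and 7 lower, against 8 and 14 with it. The difference from WT was called for 16 and 55 genes with no filter on low counts, for 5 to 7 and 7 to 9 with 1 library left out, and for 30 lower when the trend on transcript length and GC was removed. The difference from TNF was called higher for 9 genes with no filter and for 1 to 2 with 1 library left out. At 3 h of IL-1b against 1 h, 2051 to 2551 genes were lower with 1 library left out. The cause of these shifts was not tested. Of 140 genes named and called at 1 h, 121 kept their call in each fit run; the named genes that lost it without the block were Cx3cl1, Cxcl16, Foxo1, Hoxd13, Ifit1, Irak2, Lyz2, Ppbp, Rsad2 and Tifa (adjusted p 0.0516 to 0.355 in edgeR's test), and for p53KO against WT Dusp1, Ier2, Myc and Rnd1 (0.107 to 0.35). Id1, not called, had a log2 change of -0.06 to 0.29 with 1 library left out. The length trend and the fits without the 0.5 h or single TNF libraries were chosen after seeing the data. With 2 libraries per group, and 1 in WT, small changes were near the limit of the fit.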

Other observations

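Further genes, outside the lists and the naming rule and picked by hand after their values were seen, rose at 1 h; they stand for themselves and not for a group. Mt2, a metallothionein, which binds zinc and copper, had 66.5 and 79.3 CPM at 1 h of IL-1b, against 9.73 and 15.5 CPM at 0 h (log2 change 2.52), and Mt1, another, had 89.4 and 111 CPM at 1 h, against 31.2 and 37.2 CPM at 0 h (1.55). Gem, a GTPase that inhibits calcium channels, had 68.5 and 87.5 CPM at 1 h, against 9.81 and 10.6 CPM at 0 h (2.90). Phlda1 (2.80), Slc25a25, a mitochondrial carrier (2.63), Pnrc1 (2.00), Ifrd1 (1.86), Ccnl1, a cyclin linked to splicing (1.74), and Ppp1r15a, which returns translation to normal after stress (1.32), rose too. Tlr2, a receptor for bacterial lipoproteins, had 22.4 and 22.4 CPM at 1 h, against 7.90 and 7.55 CPM at 0 h (1.51). All had adjusted p-values under 0.05 in edgeR's test.

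Other genes picked in the same way fell. Ephb3, a receptor for ephrins, had 40.1 and 43.8 CPM at 1 h, against 80.8 and 77.2 CPM at 0 h (-0.91). Osr1 (-0.80), Foxc1 (-0.64) and Hoxd13 (-0.49), transcription factors of mesenchyme and limb, Cbx2, a Polycomb subunit (-1.15), and Rara, a retinoic acid receptor (-0.74), fell as well. Ibsp, bone sialoprotein, was a case in which the lines stood far apart: it had 1.71 (KO-1) and 21.5 CPM (KO-2) at 1 h, against 0.166 and 1.76 CPM at 0 h, with an adjusted p of 0.0151 in edgeR's test and a log2 change of 3.23 with IL-1b and 0.31 with TNF. Without KO-2 at 1 h its log2 change was 0.85 (adjusted p = 0.835), and it was not called without KO-1 or KO-2 at 0 h either (0.127 and 0.0927).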
